A study of Homo sapiens with 29 samples.

Results

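Cells read their own sterol level through a small set of control genes, and 9 of them are described here in lymphoma cells treated with an inhibitor of B-cell receptor signalling. They are SREBF1 and SREBF2, SCAP, INSIG1, NPC1, ABCA1, ABCG1, MYLIP and NR1H3. All probe sets annotated to these symbols were taken, 18 of the 22277 on the array and 9 of the 12165 genes with a probe set of a single symbol. No probe set of these genes was shared with another symbol (0 sets).

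RNA was measured on an Affymetrix array in DHL6 and DHL4, both established human lines of a mature B-cell cancer, diffuse large B-cell lymphoma. R406 inhibits SYK, a tyrosine kinase that carries the signal of the B-cell receptor. In each line the groups were R406 at 1 µM for 2, 6, 24 and 48 h, and the solvent DMSO, with 3 arrays per group except DHL4 in DMSO, which had 2. Separate cultures behind the 29 arrays are not stated in the labels, so p-values reflect only array-to-array spread, part of which may be technical. The DMSO arrays carry no time in the labels and serve all 4 times of their line, so treatment and culture time cannot be told apart, and the comparisons at the 4 times are not independent.

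Sterol-poor cells send the precursors of SREBP1 and SREBP2, encoded by SREBF1 and SREBF2, to the Golgi with the help of the escort protein SCAP. There the precursors are cut, and the released part enters the nucleus and switches on genes of cholesterol and fatty acid synthesis and of lipoprotein uptake, INSIG1 among them. INSIG1 protein holds SCAP in the endoplasmic reticulum when sterols are plentiful. Oxidised sterols activate the nuclear receptor LXR (its alpha form is encoded by NR1H3), which switches on the sterol pumps ABCA1 and ABCG1 and MYLIP, a ubiquitin ligase that removes lipoprotein receptors. NPC1 carries cholesterol taken up with lipoproteins out of the lysosome.

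Levels are log2 expression as deposited, which cannot be compared between probe sets. Changes are log2 differences ± standard error (SE), R406 minus DMSO of the same line unless another pair is named, from a linear model (limma) over all 29 arrays. Probe sets with an adjusted p under 0.05 are referred to as called, with Benjamini-Hochberg adjustment over the 22215 probe sets tested. The array medians lay between 3.11 and 3.27, and values near them are close to the floor of the method, where fold changes are understated and a fall cannot show. Of the 18 probe sets, 6 lay under the median on most arrays of both lines, among them 3 of the 5 sets for ABCA1 and the single set for NR1H3. Replicate arrays correlated at r between 0.978 and 0.996.

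The B-cell label was checked on 6 measured markers. MS4A1, CD79A, CD79B, CD37 and BLNK, 5 of the 6, lay above the array median on all arrays, and PAX5 was near the floor, with group means between 2.59 and 3.03. The 7 measured markers of monocytes and macrophages, cells rich in ABCA1, had group means of at most 3.22. The 6 T-cell markers had group means of at most 3.37.

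INSIG1 fell in both lines at every time, by all 3 of its probe sets. It is both a direct SREBP target and the brake on SREBP release. In DHL6 the set 201626_at read 9.07, 9.06 and 8.98 in DMSO, 8.41, 8.38 and 8.63 after 2 h of R406, 7.80, 7.88 and 7.41 after 6 h, 7.90, 7.66 and 7.96 after 24 h, and 7.59, 7.83 and 7.59 after 48 h. In DHL4 it read 9.75 and 9.61 in DMSO, 8.89, 8.85 and 8.62 after 2 h, 8.48, 8.58 and 8.55 after 6 h, 8.84, 8.78 and 8.97 after 24 h, and 8.80, 8.72 and 8.50 after 48 h. In both lines every R406 array lay below every DMSO array, and the same held for the sets 201627_s_at and 201625_s_at.

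The fall of 201626_at in DHL6 was -0.57 ± 0.12 at 2 h (adjusted p = 0.00435) and -1.37 ± 0.12 at 48 h (adjusted p = 1.15e-08). In DHL4 it was -0.90 ± 0.14 at 2 h (adjusted p = 6.59e-05) and -1.01 ± 0.14 at 48 h (adjusted p = 1.99e-05). The largest fall of any INSIG1 set was that of 201627_s_at in DHL4 at 48 h, -1.77 on the log2 scale or 3.41-fold (adjusted p = 6.08e-09). The call of 201625_s_at in DHL6 at 2 h (-0.50 ± 0.14, adjusted p = 0.034) was lost when any 1 of the 6 arrays compared was left out, with adjusted p between 0.0533 and 0.155. The other 23 calls of INSIG1 against DMSO remained without any 1 array.

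The course of INSIG1 after the first 2 h was tested between R406 groups, which use no DMSO array. In DHL6 it fell further between 2 and 6 h, by 0.77 for 201626_at (adjusted p = 0.000358) and by 0.93 for 201625_s_at (adjusted p = 0.000193). The set 201627_s_at fell by 0.44 (adjusted p = 0.0461), a call lost without 2 h array 1 (-0.43, adjusted p = 0.131) or 2 (-0.35, adjusted p = 0.232), or 6 h array 1 (-0.38, adjusted p = 0.159) or 2 (-0.41, adjusted p = 0.13). Between 6 and 24 h and between 24 and 48 h no INSIG1 set in DHL6 was called. In DHL4 2 of the 3 sets fell further between 2 and 6 h, 201627_s_at by 0.64 (adjusted p = 0.00099) and 201625_s_at by 0.63 (adjusted p = 0.00368). Between 6 and 24 h in DHL4 none was called, at 0.33 ± 0.12 for 201626_at (adjusted p = 0.0632), 0.29 ± 0.12 for 201627_s_at (adjusted p = 0.117) and 0.26 ± 0.14 for 201625_s_at (adjusted p = 0.237). With quantile normalization all 3 were called higher at 24 h, by 0.47 (adjusted p = 0.000452), 0.42 (adjusted p = 0.0431) and 0.38 (adjusted p = 0.0431). The set 201626_at was also called in a fit of the compared groups alone (adjusted p = 0.0381), with sets of a mean under 5 left out (adjusted p = 0.0225) and with a trended prior (adjusted p = 0.0453), and 201627_s_at with those sets left out (adjusted p = 0.0454) and without 24 h array 3 (0.44, adjusted p = 0.00949). The set 201627_s_at fell again in DHL4 between 24 and 48 h, by 0.71 (adjusted p = 7.03e-05). The difference between the responses of the lines was not called for any INSIG1 set. For 201626_at the DHL6 minus DHL4 difference at 24 h was -0.38, with a 95% interval between -0.76 and -0.01 before adjustment (adjusted p = 0.211), and with quantile normalization it was called at -0.47 (adjusted p = 0.0216).

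The region upstream of INSIG1 is shown because the gene fell throughout. It covers the 250 bases before the RefSeq start on chr7:155297628-155297877 of GRCh38.p14, plus strand, with matches to CCAAT and CACGTG in capitals.
INSIG1: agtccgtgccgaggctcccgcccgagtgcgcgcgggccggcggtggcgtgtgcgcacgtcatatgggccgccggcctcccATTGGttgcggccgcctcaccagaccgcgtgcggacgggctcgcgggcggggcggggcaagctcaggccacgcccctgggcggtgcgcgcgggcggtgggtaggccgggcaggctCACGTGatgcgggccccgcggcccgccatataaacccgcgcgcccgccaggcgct
The capitals mark ATTGG, the opposite-strand form of the NF-Y box CCAAT, and the palindromic E-box CACGTG, which begins 55 bases before the start. The sterol element core TCACNCCAC was searched on both strands and had no match in these letters, which says nothing of SREBP binding elsewhere. Among 27305 RefSeq promoters of this length, CCAAT occurred on either strand in 33.04% and CACGTG in 6.49%. The common motifs GGGCGG and CANNTG, the general form of CACGTG, were searched too and are not marked in the sequences shown. They occurred in 42.31% and 62.2% of the promoters.

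**Figure D1:**
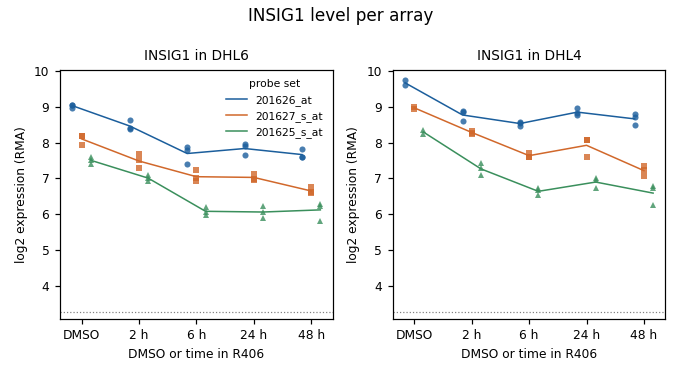
INSIG1 level on each array: log2 expression (vertical axis) in DMSO and after 2, 6, 24 and 48 h of R406 (horizontal axis), for 3 probe sets, with DHL6 at the left and DHL4 at the right. Points are arrays, lines join group means and the dotted line is the highest array median, 3.27; all R406 points of a set lie below its DMSO points in the same line.

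SREBF1, the gene of the SREBP that mainly drives fatty acid synthesis, was lower under R406 in DHL4 at 6 and 24 h. Its set 202308_at in DHL4 read 4.85 and 4.59 in DMSO, 4.01, 4.0 and 4.28 after 2 h, 3.93, 3.74 and 3.58 after 6 h, 3.88, 3.87 and 3.37 after 24 h, and 4.44, 3.96 and 4.50 after 48 h. Every R406 array in DHL4 lay below both DMSO arrays. The change was -0.97 at 6 h (adjusted p = 0.00338) and -1.01 at 24 h (adjusted p = 0.000802), and at 48 h it stood at -0.42 without passing the test. Without DHL4 DMSO array 1 the 6 h change was -0.84 and was not called (adjusted p = 0.0807). Between 24 and 48 h SREBF1 rose in DHL4 by 0.59 ± 0.20 (adjusted p = 0.0313), a call lost without 24 h array 3 (0.42, adjusted p = 0.196), 48 h array 1 (0.52, adjusted p = 0.121) or 48 h array 3 (0.49, adjusted p = 0.14).

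In DHL6 SREBF1 did not pass the test at any time. It read 3.85, 4.40 and 4.31 in DMSO, 3.41, 3.75 and 3.73 after 24 h, and 3.54, 3.93 and 3.69 after 48 h, so that all 24 h arrays lay below the DMSO arrays while the 48 h arrays overlapped them. The changes were -0.56 at 24 h (adjusted p = 0.0688) and -0.47 at 48 h (adjusted p = 0.101). Without DHL6 DMSO array 1 both were called, at -0.73 (adjusted p = 0.0297) and -0.64 (adjusted p = 0.0431). The lowest readings of the set, 3.41 in DHL6 and 3.37 in DHL4, came close to the array medians, so its falls may be understated. The responses of the lines were not distinguished: at 6 h the DHL6 minus DHL4 difference was 0.80 (95% interval 0.19 to 1.41 before adjustment, adjusted p = 0.143).

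SREBF2, the gene of the SREBP that mainly drives cholesterol synthesis, has 2 probe sets here. In DHL6 the set 201248_s_at read 4.98, 4.92 and 4.70 in DMSO, 4.69, 4.72 and 4.30 after 2 h, 4.41, 4.66 and 4.38 after 6 h, 4.73, 4.39 and 4.50 after 24 h, and 3.89, 3.79 and 3.58 after 48 h. The 48 h arrays lay below all others, and their change of -1.11 passed the test (adjusted p = 2.17e-05). The step between 24 and 48 h alone was -0.79 ± 0.17 (adjusted p = 0.0048). The other set, 201247_at, moved by -0.12 in DHL6 at 48 h and was not called there.

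In DHL4 201248_s_at read 5.39 and 5.22 in DMSO, 5.28, 5.09 and 5.54 after 2 h, 4.79, 4.19 and 4.70 after 6 h, 4.67, 4.74 and 4.26 after 24 h, and 4.85, 4.82 and 4.49 after 48 h. The 2 h arrays overlapped DMSO, and those of the later times lay below it. The changes of -0.74 at 6 h (adjusted p = 0.00836) and -0.75 at 24 h (adjusted p = 0.003) were called. The 6 h call was lost without DHL4 DMSO array 1 (-0.66, adjusted p = 0.119) or 6 h array 2 (-0.55, adjusted p = 0.071), and the 24 h call without DHL4 DMSO array 1 (-0.66, adjusted p = 0.0529). The set 201247_at was called in DHL4 at 6 h only (-0.76, adjusted p = 0.0467), which did not survive leaving out DHL4 DMSO array 1 (-0.56, adjusted p = 0.419) or 2 (-0.96, adjusted p = 0.0706), or 6 h array 2 (-0.70, adjusted p = 0.141) or 3 (-0.71, adjusted p = 0.135).

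The SREBF2 upstream region is shown because it alone among the members' listed promoters held the sterol element core. The 250 bases lie on chr22:41832855-41833104 of GRCh38.p14, plus strand.
SREBF2: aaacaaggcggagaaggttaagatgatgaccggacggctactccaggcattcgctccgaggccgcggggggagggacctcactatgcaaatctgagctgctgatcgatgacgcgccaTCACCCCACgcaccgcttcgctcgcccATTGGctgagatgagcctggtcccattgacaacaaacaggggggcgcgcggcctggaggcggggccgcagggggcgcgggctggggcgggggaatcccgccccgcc
The first capitals are TCACCCCAC, a match of TCACNCCAC that begins 133 bases before the start, and the second are ATTGG, the opposite-strand form of CCAAT. The core occurred in 0.88% of the 27305 promoters. RefSeq promoter entries were found for 8 of the 9 genes, all but ABCG1. A match is a run of letters, not a shown binding site.

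SCAP, the escort of both SREBPs, moved in opposite directions in the lines. In DHL6 its set 212329_at read 5.18, 5.27 and 5.47 in DMSO, 5.47, 5.73 and 5.36 after 2 h, 5.77, 5.69 and 6.22 after 6 h, 5.87, 5.69 and 5.85 after 24 h, and 4.93, 4.97 and 5.23 after 48 h. In DHL4 it read 5.24 and 5.49 in DMSO, 5.19, 4.96 and 4.67 after 2 h, 4.98, 5.21 and 4.75 after 6 h, 4.22, 4.56 and 4.57 after 24 h, and 5.16, 5.10 and 5.45 after 48 h. At 6 and 24 h all DHL6 arrays under R406 lay above their DMSO arrays and all DHL4 arrays lay below theirs.

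SCAP rose in DHL6 by 0.59 at 6 h (adjusted p = 0.0225) and by 0.49 at 24 h (adjusted p = 0.0421), and fell in DHL4 by 0.92 at 24 h (adjusted p = 0.000236). The DHL6 minus DHL4 difference of the responses was 0.97 ± 0.24 at 6 h (adjusted p = 0.0134) and 1.41 ± 0.24 at 24 h (adjusted p = 0.000128). The difference at 24 h was called without any 1 array, and that at 6 h was lost without DHL4 DMSO array 2 (0.85, adjusted p = 0.117). Of the rises within DHL6, the 6 h call was lost without DMSO array 1 (0.52, adjusted p = 0.116), DMSO array 2 (0.57, adjusted p = 0.0821) or 6 h array 3 (0.42, adjusted p = 0.191). At 24 h it was lost without DMSO array 1 (0.43, adjusted p = 0.172) or 2 (0.47, adjusted p = 0.122), or 24 h array 1 (0.46, adjusted p = 0.126), 2 (0.55, adjusted p = 0.0566) or 3 (0.47, adjusted p = 0.12). At 48 h SCAP was not called against DMSO in either line. Between 24 and 48 h SCAP fell in DHL6 by 0.76 ± 0.16 (adjusted p = 0.00462) and rose in DHL4 by 0.79 ± 0.16 (adjusted p = 0.000461).

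**Figure D2:**
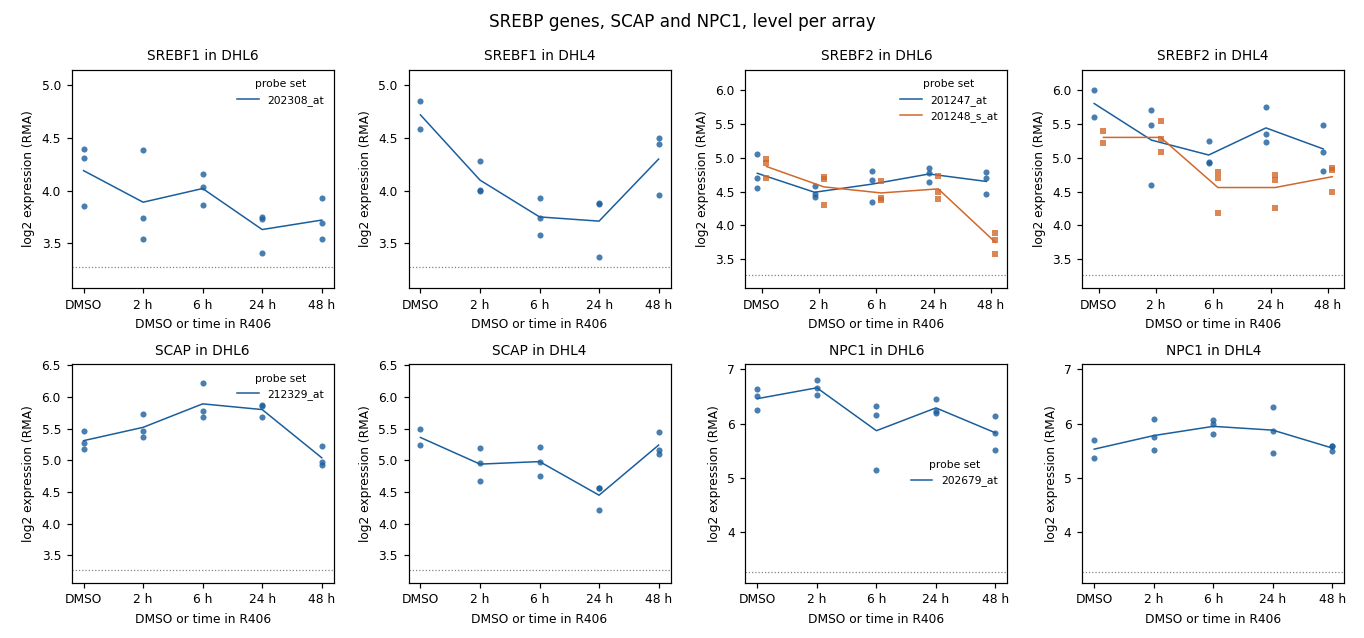
SREBF1, SREBF2, SCAP and NPC1 levels on each array: log2 expression (vertical axis) in DMSO and at each R406 time (horizontal axis), with DHL6 left of DHL4 for each gene. Points are arrays, lines join group means and the dotted line is the highest array median, 3.27; SCAP at 24 h lies above DMSO in DHL6 and below it in DHL4.

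NPC1 was not called against DMSO in either line at any time. In DHL6 its brighter set 202679_at read 6.64, 6.25 and 6.50 in DMSO, 6.32, 6.15 and 5.15 after 6 h, and 6.14, 5.52 and 5.82 after 48 h. The 48 h arrays lay below the DMSO arrays and the 6 h arrays overlapped them. The 48 h change was -0.64 (adjusted p = 0.0521), just outside the threshold, and it was called without 48 h array 1 (-0.79, adjusted p = 0.0325). It was also called with each array centred on its median (-0.74, adjusted p = 0.0243), with 1 probe set per gene (adjusted p = 0.0476), with sets of a mean under 5 left out (adjusted p = 0.0262), with a trended prior (adjusted p = 0.0396) and with a replicate block (adjusted p = 0.0338). The 6 h change of -0.59 was called without 6 h array 1 (-0.81, adjusted p = 0.0423). In DHL4 the changes of 202679_at lay between 0.02 and 0.42. The set 217584_at stayed near the floor, between 2.29 and 3.27 over all arrays.

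ABCA1, the pump that passes cholesterol to apolipoprotein A-I, rose strongly in DHL4 at 6 and 24 h and was near the floor in DHL6. In DHL6 the set 203504_s_at read 2.78, 2.96 and 2.84 in DMSO, 2.79, 3.05 and 3.21 after 2 h, 3.04, 2.78 and 2.92 after 6 h, 2.84, 2.87 and 2.91 after 24 h, and 2.96, 2.94 and 2.77 after 48 h. In DHL4 it read 5.51 and 4.19 in DMSO, 6.09, 6.06 and 4.0 after 2 h, 6.68, 6.79 and 7.09 after 6 h, 7.68, 7.92 and 7.44 after 24 h, and 5.88, 5.84 and 5.45 after 48 h. The DHL4 arrays at 6 and 24 h lay above both DMSO arrays, and those at 2 and 48 h overlapped them. The DMSO arrays of DHL4 themselves differed by more than 1 unit, and so did the 2 h arrays.

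The rise of 203504_s_at in DHL4 was 2.00 at 6 h, or 4.01-fold (adjusted p = 0.000679), and 2.83 at 24 h, or 7.11-fold (adjusted p = 2.1e-06). The set 203505_at rose by 1.46 at 6 h (adjusted p = 0.000946) and by 2.16, or 4.46-fold, at 24 h (adjusted p = 1.75e-06). The size of the 203504_s_at rise depended on the DMSO arrays of DHL4. Without array 1 it was 2.67 at 6 h (adjusted p = 0.000277) and 3.49, or 11.3-fold, at 24 h (adjusted p = 1.86e-06). Without array 2 it was 1.34 at 6 h and not called (adjusted p = 0.0855), and 2.17, or 4.49-fold, at 24 h (adjusted p = 0.000701). Without 2 h array 3 the 2 h change of that set was called at 1.22 (adjusted p = 0.00323), against 0.53 ± 0.39 with it. At 48 h neither set was called, and the step between 24 and 48 h was -1.96 ± 0.35 for 203504_s_at (adjusted p = 9.49e-05) and -1.77 ± 0.26 for 203505_at (adjusted p = 8.51e-06).

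The DHL6 minus DHL4 difference of the ABCA1 responses was called for both sets. For 203504_s_at it was -1.95 ± 0.52 at 6 h (adjusted p = 0.024) and -2.82 ± 0.52 at 24 h (adjusted p = 0.000336). For 203505_at it was -1.52 ± 0.39 at 6 h (adjusted p = 0.0183) and -2.30 ± 0.39 at 24 h (adjusted p = 0.000131). The 24 h differences were called without any 1 array, though that of 203504_s_at was -3.48 without DHL4 DMSO array 1 (adjusted p = 9.01e-05) and -2.15 without array 2 (adjusted p = 0.0104), and its 6 h difference without array 1 was -2.61 (adjusted p = 0.0054). Those at 6 h were lost without DHL4 DMSO array 2 (-1.29, adjusted p = 0.318, and -1.35, adjusted p = 0.137), DHL6 DMSO array 2 (-1.90, adjusted p = 0.0534, and -1.42, adjusted p = 0.0519) or DHL4 6 h array 3 (-1.83, adjusted p = 0.0645, and -1.44, adjusted p = 0.0501). Since 203504_s_at lay under the array median on 14 of 15 DHL6 arrays and 203505_at on all 15, a small rise in DHL6 could not be measured. In bulk RNA a change in the share of expressing cells and a change in RNA per cell cannot be told apart.

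The 250 bases upstream of ABCA1 are shown because they hold an LXR-type motif. They lie on chr9:104928156-104928405 of GRCh38.p14, minus strand.
ABCA1: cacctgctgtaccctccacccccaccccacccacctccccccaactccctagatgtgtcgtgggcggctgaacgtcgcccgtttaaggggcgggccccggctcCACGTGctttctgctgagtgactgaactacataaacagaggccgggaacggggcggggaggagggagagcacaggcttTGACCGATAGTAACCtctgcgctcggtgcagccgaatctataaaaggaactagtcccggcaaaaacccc
The first capitals are the E-box CACGTG, which begins 147 bases before the start. The second are the opposite-strand form of a match to GGTNA repeated after 5 bases of any kind, a relaxed pair of nuclear receptor half-sites spaced as LXR prefers, written with this gene's known element in mind. That pattern occurred in 0.55% of the 27305 promoters and in no other listed promoter of the members. The stricter pair, GGTCA and then AGGTCA with 4 bases between them, occurred in 0.04% of the promoters and had no match in these letters or in the other listed promoters of the members.

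MYLIP, whose product marks lipoprotein receptors for breakdown, followed a like course in DHL4. In DHL6 its set 220319_s_at read 4.87, 5.01 and 4.55 in DMSO, 4.10, 5.08 and 4.81 after 2 h, 4.54, 4.96 and 3.91 after 6 h, 4.72, 4.94 and 4.79 after 24 h, and 4.19, 4.85 and 4.80 after 48 h, with overlap at each time. In DHL4 it read 4.15 and 3.85 in DMSO, 4.34, 4.76 and 5.26 after 2 h, 5.19, 5.01 and 4.83 after 6 h, 6.17, 5.93 and 5.96 after 24 h, and 4.24, 4.17 and 4.74 after 48 h. Every R406 array in DHL4 lay above both DMSO arrays, and the 24 h arrays lay above all others.

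The DHL4 rise of MYLIP was 2.02, or 4.06-fold, at 24 h (adjusted p = 3.51e-06) and 1.01 at 6 h (adjusted p = 0.0206). The 6 h call was lost without DHL4 DMSO array 1 (1.16, adjusted p = 0.0587) or 2 (0.86, adjusted p = 0.236), or 6 h array 1 (0.92, adjusted p = 0.0813) or 2 (1.01, adjusted p = 0.0517). At 2 h the change was 0.79 ± 0.29 (adjusted p = 0.102), called at 1.01 without 2 h array 1 (adjusted p = 0.0385). It rose by 1.01 ± 0.26 between 6 and 24 h (adjusted p = 0.00489) and fell by 1.64 ± 0.26 between 24 and 48 h (adjusted p = 1.91e-05). In DHL6 MYLIP was well above the floor and its changes lay between -0.34 and 0.01, none of them called.

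The DHL6 minus DHL4 difference of the MYLIP responses was -2.02 ± 0.39 at 24 h (adjusted p = 0.000487), called without any 1 array. At 6 h it was -1.36 ± 0.39 (adjusted p = 0.0359), and this call was lost without DHL4 DMSO array 1 (-1.51, adjusted p = 0.0625) or 2 (-1.21, adjusted p = 0.205), DHL6 DMSO array 1 (-1.33, adjusted p = 0.0755) or 2 (-1.26, adjusted p = 0.0923), DHL4 6 h array 1 (-1.27, adjusted p = 0.0919) or 2 (-1.36, adjusted p = 0.0671), or DHL6 6 h array 3 (-1.08, adjusted p = 0.116).

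ABCG1, a pump that passes cholesterol to lipoprotein particles, was still higher at 48 h in DHL4. In DHL6 its set 204567_s_at read between 2.57 and 3.17 over all 15 arrays, all under the array median. In DHL4 it read 3.97 and 3.86 in DMSO, 4.50, 3.84 and 3.71 after 2 h, 4.10, 4.83 and 5.57 after 6 h, 4.84, 4.54 and 4.09 after 24 h, and 4.93, 5.04 and 5.20 after 48 h. The arrays at 6, 24 and 48 h lay above both DMSO arrays, and those at 48 h spread least among the R406 groups of this line. The rise was 0.92 at 6 h (adjusted p = 0.025) and 1.14 at 48 h (adjusted p = 0.00814), and the 24 h change of 0.58 was not called (adjusted p = 0.129).

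Both ABCG1 calls rested on few arrays. That at 48 h was lost without DHL4 DMSO array 1 (1.20, adjusted p = 0.0583) or 2 (1.09, adjusted p = 0.106). That at 6 h was lost without DHL4 DMSO array 1 (0.98, adjusted p = 0.104) or 2 (0.86, adjusted p = 0.189), or 6 h array 2 (0.92, adjusted p = 0.0605) or 3 (0.55, adjusted p = 0.199). At 24 h ABCG1 was called without 24 h array 3 (0.78, adjusted p = 0.0465). The set 211113_s_at stayed between 2.42 and 3.39 on all arrays and was never called against DMSO.

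NR1H3, the gene of LXR alpha, lay close to the floor in both lines. Its set 203920_at was under the array median on 14 of 15 DHL6 arrays and on 10 of 14 DHL4 arrays. It read 3.47, 3.39 and 3.17 in DHL4 after 6 h of R406, against 3.12 and 2.86 in DMSO, a change of 0.35 that was not called (adjusted p = 0.22). Between 6 and 24 h in DHL4 it fell by 0.54 ± 0.14 (adjusted p = 0.00699), lost without 24 h array 1 (-0.45, adjusted p = 0.0529). No change against DMSO was called for NR1H3 in either line.

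**Figure D3:**
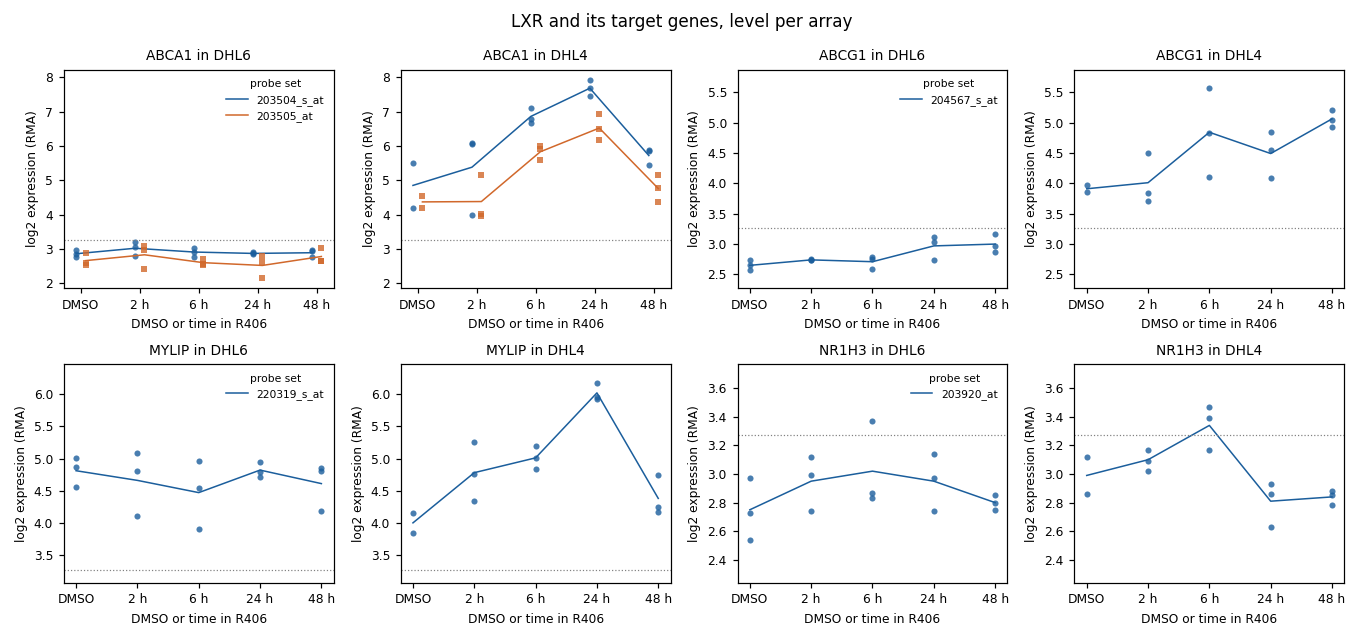
ABCA1, ABCG1, MYLIP and NR1H3 levels on each array: log2 expression (vertical axis) in DMSO and at each R406 time (horizontal axis), with DHL6 left of DHL4 for each gene. Points are arrays, lines join group means and the dotted line is the highest array median, 3.27; ABCA1 and MYLIP peak at 24 h in DHL4, and ABCA1, ABCG1 and NR1H3 lie near or under the dotted line in DHL6.

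Markers of other cell types were set beside the DHL4 rise of ABCA1, ABCG1 and MYLIP. The summed log2 level of the 7 monocyte and macrophage markers lay between 19.79 and 20.54 in DHL4 at 24 h, against 19.34 to 20.80 in DMSO, and limma called 0 of the 7 in either line at any time, with 1 of 56 values under an unadjusted p of 0.05. Of the 6 markers of fibroblasts and endothelium, PECAM1 and DCN moved in DHL4 and the other 4 stayed near the floor. PECAM1 averaged 3.08 in DMSO, 4.16 at 6 h, 7.64 at 24 h and 4.79 at 48 h. DCN averaged 8.43 in DMSO, 4.42 at 24 h and 8.68 at 48 h. The summed level of these 6 lay between 24.41 and 24.75 at 24 h, against 23.13 to 23.65 in DMSO. The part of these genes in the result was not tested.

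Counted over all 18 probe sets in DHL6, 3 were called at 2 h, where 4.37% of all probe sets were called, 4 at 6 h (6.89% of all), 4 at 24 h (12.4%) and 4 at 48 h (20.3%). In DHL4 the counts were 3 at 2 h (8.04% of all probe sets), 10 at 6 h (10.6%), 9 at 24 h (26%) and 4 at 48 h (6.32%). All 3 INSIG1 sets were called each time. By gene the counts were 1, 2, 2 and 2 in DHL6 and 1, 6, 6 and 2 in DHL4. The share of the 18 sets called at 48 h in DHL6 was 22.2%, close to that of all probe sets. The 10 calls in DHL4 at 6 h, 55.6% of the 18 sets, were 4 rises and 6 falls over 6 genes. The median change of the 18 sets there was 0.10, against 0.01 over all probe sets, since rises, falls and floor values were mixed. For the difference between the lines limma called 0 sets at 2 h (1.31% of all), 4 at 6 h (5.58%), 4 at 24 h (13.9%) and 0 at 48 h (3.99%), with 4 sets at 2 h and 2 at 48 h under an unadjusted p of 0.05. Between successive R406 times in DHL6, limma called 3 sets from 2 to 6 h (3.51% of all), 0 from 6 to 24 h (4.47%, and 0 under an unadjusted p of 0.05) and 2 from 24 to 48 h (6.04%). In DHL4 the counts were 6 (10.1% of all), 3 (19.6%) and 6 (21.8%).

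**Figure D4:**
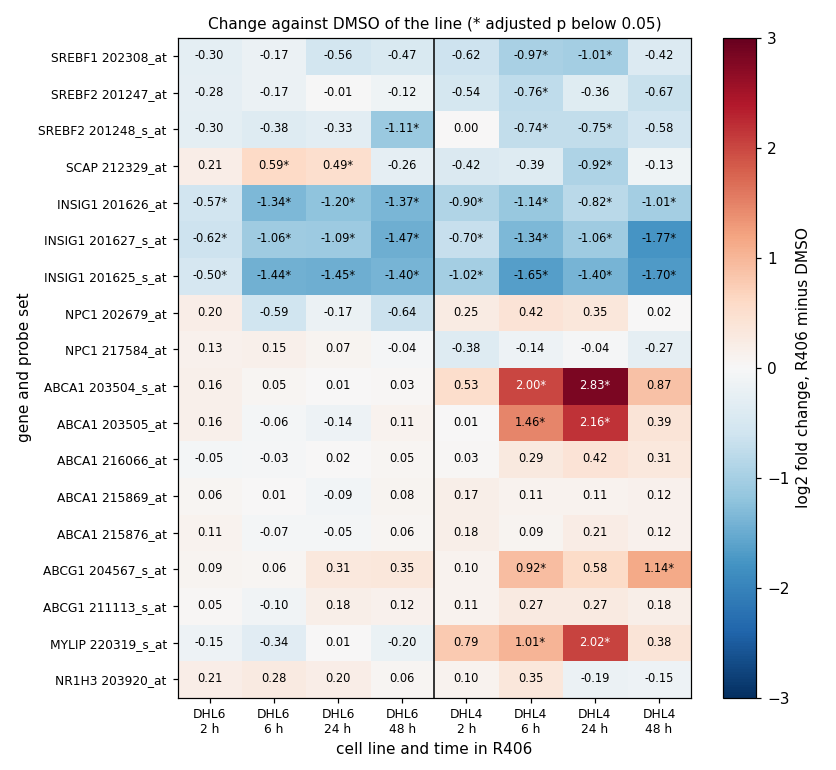
Change of each of the 18 probe sets under R406: rows are probe sets, columns are the 4 times in DHL6 and then in DHL4, and colour is the log2 difference from DMSO of the same line. Asterisks mark values with an adjusted p below 0.05; INSIG1 has one at all 24 of its values, and the marked rises of ABCA1, ABCG1 and MYLIP lie in DHL4.

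The lines already differed in these genes in DMSO. Of the 18 sets, 8 were called between DHL6 and DHL4, where 17.2% of all probe sets were. NPC1 202679_at was higher in DHL6, by 0.93 (adjusted p = 0.0108), a call lost without DHL4 DMSO array 2 (0.76, adjusted p = 0.169). The 7 lower in DHL6 were the 3 INSIG1 sets, by between -0.64 and -0.87, the 2 brighter ABCA1 sets, ABCG1 204567_s_at and SREBF2 201247_at. ABCA1 averaged 2.86 ± 0.09 in DHL6 (SD, n = 3) and 4.85 ± 0.94 in DHL4 (SD, n = 2) by 203504_s_at, a difference of -1.99 (limma adjusted p = 0.000406), and ABCG1 differed by -1.26 (adjusted p = 0.00106). Without DHL4 DMSO array 2 the ABCA1 difference was -2.65 (adjusted p = 0.000137). Without array 1 it was -1.33 (adjusted p = 0.0565) and that of SREBF2 201247_at -0.82 (adjusted p = 0.0933), against -1.03 with it (adjusted p = 0.00325). MYLIP lay the other way, 0.81 higher in DHL6, without passing the test (adjusted p = 0.0529), and it did pass without DHL6 DMSO array 3 (0.94, adjusted p = 0.044).

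Other genes of the pathway are given by lists, with 1 probe set per gene. Of 9 measured genes that process or turn over SREBPs and their regulators, DHL6 had 2 higher and 1 lower at 24 h, where 12.4% of all probe sets were called, and DHL4 had 4 of each, where 26% were. The DHL6 count of lower genes was 2 with quantile normalization, with only the compared groups and with a trended prior. It was 0 without any 1 DMSO array or without 24 h array 2 or 3. With sets of a mean under 5 left out it was 2, and the DHL4 count of lower genes was also 2. The count of higher genes in DHL6 was 1 without 24 h array 3, and that of lower genes in DHL4 was 2 without DMSO array 1 or 24 h array 1. SPRING1, a cofactor needed for SREBP cleavage, rose at 24 h by 1.33 ± 0.24 in DHL6 (adjusted p = 0.000374) and by 1.90 ± 0.27 in DHL4 (adjusted p = 4.03e-06). MBTPS1, the site-1 protease that makes the first cut in SREBPs, rose at 24 h by 0.70 ± 0.17 in DHL6 (adjusted p = 0.00438) and by 1.14 ± 0.18 in DHL4 (adjusted p = 2.16e-05). Its DHL6 call was lost without DHL6 24 h array 3 (0.51, adjusted p = 0.0543). UBE2G2, an enzyme of the degradation route of the endoplasmic reticulum, fell by 1.40 ± 0.25 in DHL4 at 24 h (adjusted p = 8.91e-05). In DHL6 at 24 h it was at -0.66 and was not called (adjusted p = 0.0578), though it was without DHL6 24 h array 1 (-0.80, adjusted p = 0.0418).

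Of 10 measured genes of sterol transport and esterification, DHL6 had 0 higher and 1 lower at 24 h (12.4% of all probe sets called) and DHL4 had 2 of each (26% called). The count of higher genes in DHL4 was 1 with each array centred and without DMSO array 1, DMSO array 2 or 24 h array 1, that in DHL6 was 1 with only the compared groups, and that of lower genes in DHL6 was 2 with a replicate block. With sets of a mean under 5 left out, the count of lower genes at 24 h was 0 in DHL4 and 0 in DHL6. LRP8, a receptor of the lipoprotein receptor family, was lower at all 4 times in both lines, by -1.11 ± 0.16 at 24 h in DHL6 (adjusted p = 1.52e-05) and by -2.11 ± 0.18 in DHL4 (adjusted p = 6.76e-10). Its DHL4 mean was 5.72 in DMSO and 3.61 at 24 h, close to the floor, where fold changes are understated. SCARB1, a receptor that takes up cholesterol esters, fell in DHL4 at all 4 times, by 0.83 ± 0.20 at 24 h (adjusted p = 0.0024). It was not called in DHL6, where its 24 h change was -0.45 (adjusted p = 0.121), called with a replicate block (adjusted p = 0.0364). In DHL4 the 48 h calls of LRP8 and SCARB1 depended on DMSO array 1, without which 1 DMSO array was left. The count of lower genes in DHL4 at 48 h was 1 without 48 h array 3. OSBPL2 went the other way at 24 h, with means of 4.57 against 3.93 in DMSO in DHL6 and 4.51 against 3.77 in DHL4. In DHL6 it was not called. Of the 7 listed partners and further targets of LXR only RXRA, RXRB, LPCAT3 and SMPDL3A were measured by a set of their own. Against DMSO limma called 0 of these 4 in either line at any time, with 3 of the 32 values under an unadjusted p of 0.05. RXRA, with group means of 2.73 to 3.13, and SMPDL3A, with 2.58 to 3.62, lay near the floor, where small changes could be missed. RXRB in DHL4 at 24 h stood at 0.66 (adjusted p = 0.117) and was called with quantile normalization (0.80, adjusted p = 0.017) and with only the compared groups (0.66, adjusted p = 0.0061). In the mean of both lines at 24 h it was called at 0.58 (adjusted p = 0.0312). At 24 h the median changes of these 4 genes were 0.24 in DHL6 and 0.18 in DHL4, against 0.02 and 0.04 over all probe sets tested.

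The enzymes that SREBPs switch on fell in both lines. Of 16 measured enzymes of cholesterol synthesis, 9, 11, 13 and 14 were lower at 2, 6, 24 and 48 h in DHL6 and 11, 13, 13 and 12 in DHL4, with 0 higher. In DHL6 at 24 h 1 was called higher with quantile normalization, with only the compared groups and with a replicate block. The same held with sets of a mean under 5 left out. Of all probe sets, 4.37%, 6.89%, 12.4% and 20.3% were called at the 4 times in DHL6, and 8.04%, 10.6%, 26% and 6.32% in DHL4. Between 24 and 48 h in DHL4, where 21.8% of all probe sets were called, 9 of the 16 rose and 0 fell, while no INSIG1 set rose. Of 11 measured enzymes of fatty acid synthesis, 3, 6, 5 and 7 were lower at these times in DHL6 and 8, 8, 7 and 5 in DHL4, with 1 higher, at 24 h in DHL4. The DHL4 counts of lower enzymes leaned on the DMSO arrays: without DMSO array 1 they were 4 at 2 h, 5 at 6 h and 2 at 48 h, and without DMSO array 2 the 48 h count was 3. In a fit of the compared groups alone they were 3 at 2 h and 3 at 48 h. With sets of a mean under 5 left out, the counts of lower enzymes were 5 at 6 h and 2 at 48 h in DHL4. In DHL6 the 24 h count was then 3. These lists were drawn up with results of these data known and are no independent evidence of direction.

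The genes most like each member were taken by Pearson correlation over the 29 arrays after each line was centred on its own mean, which leaves time and array effects in common. For INSIG1 201626_at these were PHACTR1 (r = 0.924), and MSMO1 (r = 0.914) and IDI1 (r = 0.897), enzymes of cholesterol synthesis. For SREBF1 they were PLEK (r = 0.799), DHCR7 (r = 0.795), the enzyme of the last step of cholesterol synthesis, and FASTKD2 (r = 0.792). For ABCA1 203504_s_at they were PCDH9 (r = 0.916), ZBED5 (r = 0.905) and ARHGEF6 (r = 0.895), and for MYLIP probe sets annotated to HLA-C (r = 0.858), AUTS2 (r = 0.854) and KLHL2 (r = 0.853). For SCAP they were TELO2 (r = 0.816), ABCF2 (r = 0.767) and RSL1D1 (r = 0.766). The highest r was 0.699 for NPC1, 0.697 for ABCG1, 0.679 for NR1H3 and 0.647 for SREBF2.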

How the data were processed

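RNA was measured on 29 arrays in 10 groups, taken from the labels. The deposited log2 values, 1.99 to 13.49, are RMA summaries of each probe set, as the submitters' processing notes state. The RMA version is not given in the sources used here, nor is the set of arrays it ran on. Of 22277 probe sets, 62 array controls were left out, 19724 had a single symbol in the platform annotation (19713 matched by Entrez identifier), 568 had several and 1923 had none listed. The 22215 others were fitted as 10 group means with limma 3.58.1 in R 4.3.3 (19 residual and 5.15 prior degrees of freedom), with Benjamini-Hochberg adjustment per contrast. The contrasts set each R406 time against DMSO within a line, and further covered the DHL6 minus DHL4 difference of these, successive R406 times, and DHL6 minus DHL4 in DMSO.

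The text names all probe sets of the members, at most 3 members of each pathway list (those called with the largest change at 24 h averaged over the lines, 1 probe set per gene of highest mean) and the 3 genes most like each member; PECAM1, DCN, RXRA, LPCAT3 and SMPDL3A were added after their values were seen. The members and lists were chosen with earlier results of these data known. The lists cover cholesterol synthesis, fatty acid synthesis, SREBP processing and turnover, LXR partners and targets, sterol transport and esterification, and markers of B cells, monocytes and macrophages, T cells, and fibroblasts and endothelium. Promoter sequences are from RefSeq, build GRCh38.p14. The genome build behind the array design was not used here, and some genes are not reported here.

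The fit was tested on simulated data for DHL6 at 24 h against DMSO, with 3 arrays per group and the same spread for all 22215 probe sets. There 99 of 100 shifts of 1 log2 unit were called, with 8 unshifted sets called. How many smaller shifts were called is not given here. Comparisons with the 2 DMSO arrays of DHL4, and a spread that differs between probe sets, were not simulated. Alternatives were quantile normalization, centring of arrays, a fit of the compared groups only, 1 probe set per gene, leaving out sets with a mean under 5, a trended variance prior, the replicate number as a block, and leaving out each array. No pair of arrays held identical values (0 pairs). The number of arrays limits the precision.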

Additional observations from a re-analysis of the deposited data

Results flagged for a closer look

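Results are named here because the response to R406 differed between the lines by the test of the difference itself, DHL6 minus DHL4 (limma, adjusted over all probe sets). For SCAP the difference was 0.97 at 6 h (adjusted p = 0.0134) and 1.41 at 24 h (adjusted p = 0.000128), higher in DHL6. For ABCA1 203504_s_at it was -1.95 at 6 h (adjusted p = 0.024) and -2.82 at 24 h (adjusted p = 0.000336), and for ABCA1 203505_at it was -1.52 at 6 h (adjusted p = 0.0183) and -2.30 at 24 h (adjusted p = 0.000131). For MYLIP it was -1.36 at 6 h (adjusted p = 0.0359) and -2.02 at 24 h (adjusted p = 0.000487). ABCA1 lay near the floor in DHL6 throughout, while MYLIP and SCAP lay above it in both lines. All 4 values at 6 h lost their call without DHL4 DMSO array 2, where SCAP was at 0.85 (adjusted p = 0.117), the ABCA1 sets at -1.29 (adjusted p = 0.318) and -1.35 (adjusted p = 0.137), and MYLIP at -1.21 (adjusted p = 0.205).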

How the results depend on the processing

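Of 4298 values of single probe sets under the alternatives, 4158 kept their side of the threshold, 53 gained a call and 87 lost one. In 0 of them was a called direction reversed, while values not called could change sign. Of 262 counts of members called, 231 stayed within 1.5 times of the reported count and 31 did not. With quantile normalization the count for DHL4 24 h minus 6 h was 7 (reported 3) and for DHL6 48 h minus 24 h it was 1 (reported 2). When the fit held no arrays but the compared ones, the counts were 1 for the difference between lines at 48 h (reported 0), 6 for DHL4 24 h minus 6 h, 1 for DHL6 6 h minus 2 h (reported 3) and 0 for DHL6 48 h minus 24 h. With a trended prior DHL4 24 h minus 6 h gave 5. With 1 probe set per gene, 9 sets in all, the counts were 1, 2, 2 and 2 at the 4 times in DHL6, 1, 6, 5 and 2 in DHL4, 1 for DHL6 6 h minus 2 h, 1 for DHL6 48 h minus 24 h and 2 for DHL4 6 h minus 2 h. Leaving out sets with a mean under 5 left 5 member sets, with 3 called at 6 h and 4 at 24 h in DHL4, 2 and 1 for the difference at these times, 2 each for DHL4 6 h minus 2 h and 48 h minus 24 h, and 4 in DMSO. Apart from those last 2 alternatives, which hold fewer sets, the cause was not tested.

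Leaving out each array in turn gave counts in DHL6 of 2 to 2 at 2 h (reported 3), 3 to 5 at 6 h, 3 to 4 at 24 h and 4 to 5 at 48 h. In DHL4 they were 3 to 4 at 2 h, 5 to 9 at 6 h (reported 10), 8 to 10 at 24 h and 3 to 4 at 48 h. For the difference between lines they were 0 to 0 at 2 h, 0 to 5 at 6 h (reported 4), 4 to 4 at 24 h and 0 to 0 at 48 h. For successive times they were 2 to 3, 0 to 0 and 2 to 2 in DHL6 and 5 to 6, 2 to 4 and 5 to 7 in DHL4, and for DMSO 6 to 9 (reported 8). Without 1 DMSO array of DHL4 a single array is left there and is assumed to vary like the other groups. Among other settings, the SCAP rise in DHL6 at 24 h lost its call with quantile normalization (0.58, adjusted p = 0.0618), centring (0.44, adjusted p = 0.0695) and a trended prior (adjusted p = 0.0781), and the ABCG1 rise in DHL4 at 6 h with only the compared groups (0.92, adjusted p = 0.116).

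Over 126 pairs of arrays with the same replicate number the correlation of deviations from group means ran from -0.424 to 0.356, with 15 over 0.1. Its median was 0.00751, against -0.00313 for pairs with other numbers, and 14 of 29 arrays correlated best with their own number. Whether the numbers pair the arrays cannot be settled by this check. With the replicate block SREBF2 201247_at in DHL4 at 6 h was at -0.78 (adjusted p = 0.052) and INSIG1 201627_s_at between 2 and 6 h in DHL6 at -0.44 (adjusted p = 0.0593), both no longer called. NPC1 202679_at became called in DHL6 at 48 h (-0.64, adjusted p = 0.0338), between 2 and 6 h in DHL6 (-0.78, adjusted p = 0.0369) and for the difference at 6 h (-1.07, adjusted p = 0.0477), and SCARB1 in DHL6 at 24 h (-0.45, adjusted p = 0.0364). No count of member calls moved by over 1.5 times with the block.

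Limits are the 2 DMSO arrays of DHL4, on which all comparisons of DHL4 with DMSO rest, the missing time of the DMSO arrays, and the floor, which hides small changes of ABCA1 and ABCG1 in DHL6 and of NR1H3 in both lines.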
